A study of Drosophila melanogaster with 2 samples.

Results

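The genes described here encode subunits of the proteasome in Drosophila melanogaster. They were chosen by symbol: protein-coding genes of the main chromosome arms whose symbol begins with Prosalpha or Prosbeta, or with Rpn or Rpt and a digit. The rule gave 48 genes of 13945. Of these, 32 carry a plain number and are called standard subunits below: 7 Prosalpha, 7 Prosbeta, 6 Rpt and 12 Rpn genes. The other 16 have a symbol that ends in T or R, with or without a digit after it, and are called T or R paralogs: 5 Prosalpha, 6 Prosbeta, 3 Rpt and 2 Rpn genes. Several T and R genes are known as testis forms of a standard subunit. Expression was not measured in these samples, so the division rests on the symbols alone.

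The data are ChIP-seq peaks of the transcription factor lame duck (lmd), a zinc-finger protein of the Gli family known from the fusion-competent myoblasts of the embryo. Whole embryos of 0 to 18 hours came from the transgenic strain lmd-GFP, in which lmd is fused to eGFP, and chromatin sonicated to 200 to 800 bp was precipitated with an antibody to GFP. All libraries belong to 1 group of 2 biological replicates, with no second genotype, treatment or stage, so every comparison is between genes or between the replicates. A whole embryo mixes cells that express lmd with many that do not, and a peak does not say in which cells it arose. The labels name no promoter for the fusion gene.

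The proteasome degrades proteins that carry ubiquitin chains. Its barrel-shaped core is built from alpha rings, whose subunits gate the entrance, and beta rings, of which Prosbeta1, Prosbeta2 and Prosbeta5 hold the protease sites. A regulatory particle sits on the core. Its Rpt subunits form a ring of ATPases that unfolds substrates. Its Rpn subunits bind ubiquitin (Rpn1, Rpn10, Rpn13), remove it (Rpn11 with its partner Rpn8) or form the scaffold and lid. All are needed in nearly every cell. The fly factor cap-n-collar (cnc), like its relatives in mammals, raises proteasome genes together when the proteasome is impaired.

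The stretches that the results turn on are shown first, each read 5′ to 3′ in the direction of transcription from the Release 6 genome (dm6), up to the base before the annotated 5′ end of the gene and clipped where another annotated exon begins. The first pair holds promoters with a summit in the set called on both replicates. The capitals mark the bases within 10 bp of the summit. The Rpn3 stretch (chr2L:19051613-19051789, plus strand) contains a run of 72 bases and then the same run again, starting 177 and 99 bases upstream of the gene, and its summit lies 20 bases upstream. The Rpn5 stretch (chr3R:5789385-5789492, plus strand) begins at the neighbouring gene Hat1, and its second summit lies 107 bases upstream.
Rpn3: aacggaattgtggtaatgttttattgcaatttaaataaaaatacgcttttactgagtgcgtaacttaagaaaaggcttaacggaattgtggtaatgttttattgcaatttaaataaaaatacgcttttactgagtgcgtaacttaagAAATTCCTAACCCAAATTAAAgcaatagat
Rpn5: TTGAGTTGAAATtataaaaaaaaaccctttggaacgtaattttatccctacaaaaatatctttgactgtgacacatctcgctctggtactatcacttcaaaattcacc

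The next stretches show the word TATCGATA, the DNA replication-related element (DRE), in capitals where it occurs. Prosbeta2 (chr3L:14999751-14999950, plus strand) has it 10 bases upstream of its 5′ end, Prosalpha6 (chr2L:10221217-10221350, plus strand) 16 bases upstream, and Prosbeta6 (chr3L:16610419-16610618, minus strand) 44 bases upstream. Where the full word is absent, its inner 6 letters, ATCGAT, are in capitals. Rpn2 (chr3R:29153324-29153523, plus strand) has them at 46 and 28 bases upstream, and the paralog Prosbeta2R1 (chrX:5808754-5808953, plus strand) at 199 bases upstream. The paralog Prosalpha6T (chr2L:13231839-13232038, plus strand) has neither and holds no capitals.
Prosalpha6: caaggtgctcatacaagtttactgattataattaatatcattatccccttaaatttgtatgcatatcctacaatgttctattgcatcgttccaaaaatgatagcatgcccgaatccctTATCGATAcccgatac
Prosalpha6T: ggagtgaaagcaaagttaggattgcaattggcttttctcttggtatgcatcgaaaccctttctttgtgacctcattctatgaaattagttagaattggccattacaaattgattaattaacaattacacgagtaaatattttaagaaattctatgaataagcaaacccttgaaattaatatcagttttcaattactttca
Prosbeta2: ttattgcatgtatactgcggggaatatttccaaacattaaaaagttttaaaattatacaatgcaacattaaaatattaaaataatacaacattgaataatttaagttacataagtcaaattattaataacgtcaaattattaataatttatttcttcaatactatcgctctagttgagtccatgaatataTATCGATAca
Prosbeta2R1: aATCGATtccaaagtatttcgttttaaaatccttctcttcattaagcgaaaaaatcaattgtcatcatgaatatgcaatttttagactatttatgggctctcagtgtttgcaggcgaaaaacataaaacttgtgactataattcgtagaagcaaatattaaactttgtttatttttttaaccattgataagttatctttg
Prosbeta6: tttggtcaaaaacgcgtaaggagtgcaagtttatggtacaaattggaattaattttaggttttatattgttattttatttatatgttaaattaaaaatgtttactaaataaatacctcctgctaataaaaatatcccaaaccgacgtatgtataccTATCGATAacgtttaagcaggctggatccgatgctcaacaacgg
Rpn2: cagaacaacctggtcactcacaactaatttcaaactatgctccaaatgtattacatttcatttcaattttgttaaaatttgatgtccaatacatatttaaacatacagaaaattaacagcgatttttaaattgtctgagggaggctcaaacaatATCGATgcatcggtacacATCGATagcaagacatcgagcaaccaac

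Summits at the start sites of standard subunits were about as frequent as at genes in general. In the conservative set, the 4998 main-arm peaks that the authors kept from both replicates, 5 of 32 standard subunits had a summit within 500 bp of an own transcription start site (TSS). That is 15.6% (95% Wilson interval 6.86 to 31.8%, which covers counting error only), against 17.2% of all protein-coding genes. None of the 16 T or R paralogs had one, and 0 of 16 allows a share of up to 18.8%. That limit lies above the share of all genes, so the paralogs could not be told from genes in general by this count. The difference between standard subunits and paralogs was not tested, because genes are not replicates and all summits come from the same libraries.

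Ribosomal protein genes, another large set used in nearly every cell, gave higher shares. Cytoplasmic ribosomal protein genes had a summit at an own TSS in 50 of 88 cases (56.8%, interval 46.4 to 66.7%). Mitochondrial ribosomal protein genes had one in 21 of 73 cases (28.8%). The interval of the standard subunits lies wholly below that of the cytoplasmic ribosomal genes and overlaps that of the mitochondrial ones (19.7 to 40.0%). These differences were not tested.

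**Figure D1:**
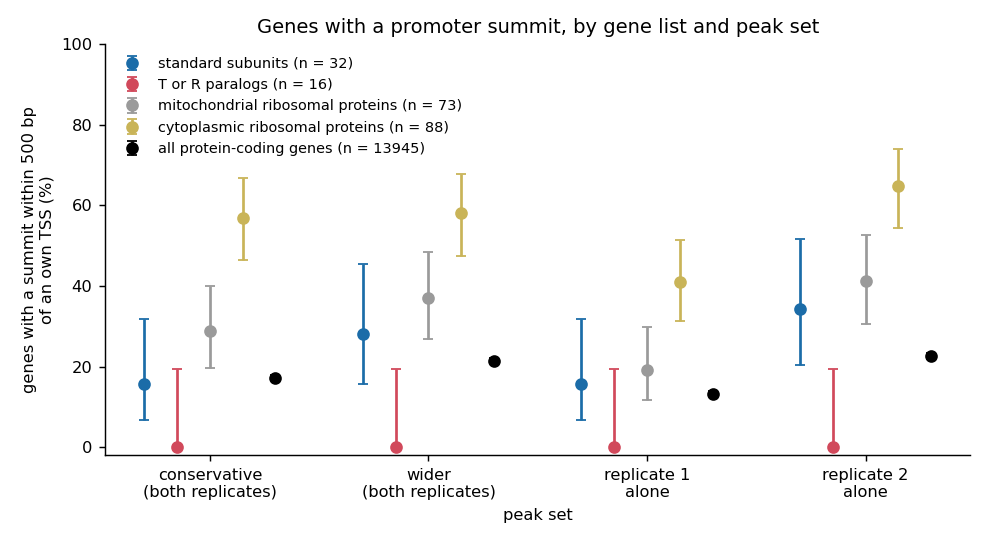
Share of genes with a summit within 500 bp of an own TSS (vertical axis, %) in 4 deposited peak sets, for standard subunits, T or R paralogs, both families of ribosomal protein genes and all protein-coding genes. Points are shares and bars are 95% Wilson intervals for counting error; standard subunits reach 34.4% in the replicate 2 set and 15.6% in the replicate 1 set, while the paralogs are at 0 throughout.

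Numbers in each part of the complex were small. Of the 5 genes, 4 were Rpn genes (4 of 12, 33.3%, interval 13.8 to 60.9%) and 1 was a Prosbeta gene (1 of 7). No Prosalpha gene (0 of 7, which allows up to 42.9%) and no Rpt gene (0 of 6, which allows up to 50%) had a summit. The 17.2% of all genes lies inside the interval of the Rpn genes and below both limits, and the difference between the parts was not tested. In replicate 2 a summit was present at 7 of 12 Rpn, 1 of 7 Prosbeta, 2 of 7 Prosalpha and 1 of 6 Rpt genes, against 22.6% of all genes. That share lay below the interval of the Rpn genes in this replicate (32.0 to 80.7%) and inside those of the other parts. These differences were not tested either.

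Rpn3, a subunit of the lid, had the strongest promoter summit among the members. Its peak (2L, 19051588 to 19051951 in dm6) had a signal of 243, the authors' own value per peak, and ranked 1477 of 4998 by that signal. In the sets of the single replicates the Rpn3 peak had a signal of 101 and rank 1587 of 3929 in replicate 1, and a signal of 145 and rank 1473 of 5544 in replicate 2. Its summits lay 40 and 24 bp upstream of the Rpn3 TSS in replicates 1 and 2, against 20 bp in the joint set. Signals of different lists are on scales that the files do not relate, so they are set side by side without a ratio. The TSS of l(2)37Bb lies 158 bp from the same summit.

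Rpn13, the ubiquitin receptor at the outer end of the particle, had a peak of the same size. The peak (2R, 13960241 to 13960604) had a signal of 243 and rank 1486, and its summit lay 19 bp upstream of an Rpn13 TSS. It was weaker in the ordering of replicate 1, with a signal of 67.5 and rank 2620, than in that of replicate 2, with a signal of 176 and rank 1147. The summit is 252 bp from the start of CtsL1, a cathepsin L protease gene.

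Rpn6, whose product in yeast clamps the lid to the core, showed the same pattern between the replicates. Its peak (2R, 14752303 to 14752443) had a signal of 196 and rank 1951 in the conservative set. Replicate 1 gave it a signal of 58.2 and rank 3044, and replicate 2 a signal of 152 and rank 1403. The summit lay 92 bp upstream of the nearer Rpn6 TSS, outside any exon but inside the annotated span of Rpn6, because another Rpn6 transcript starts farther upstream. The start of ave, a gene of Raf signalling, is 158 bp from it.

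Rpn5, also a lid subunit, was the member with more than 1 summit at its start. The stronger peak (3R, 5789093 to 5789194) had a signal of 199 and rank 1922, and its summit lay 311 bp upstream of the Rpn5 TSS. The weaker one (3R, 5789204 to 5789567) had a signal of 115 and rank 3411, with its summit 107 bp upstream. The start of Hat1, a histone acetyltransferase gene, was nearer to both summits, at 108 and 2 bp. Each replicate had a single peak that overlapped both. It had a signal of 98.6 and rank 1627 in replicate 1 and a signal of 91.3 and rank 2610 in replicate 2, so Rpn5 stood 41.4% from the top of the replicate 1 set and 47.1% from the top of the replicate 2 set. In these thresholded sets the other 4 genes stood higher in the order of replicate 2 than in that of replicate 1. In the longer lists ranked without a threshold, Rpn13, Rpn6 and Prosbeta2 did so too. Rpn3 did not, at 1.45% from the top in replicate 1 and 1.69% in replicate 2.

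Prosbeta2, which holds the trypsin-like site of the core, was the core subunit with a promoter summit. Its peak (3L, 14999584 to 14999947) had a signal of 229 and rank 1595, and the summit lay 185 bp upstream of the Prosbeta2 TSS. Replicate 1 gave a signal of 77.1 and rank 2236, and replicate 2 a signal of 144 and rank 1505. The summit was nearer to mRpL39, a mitochondrial ribosomal protein gene whose start is 100 bp away.

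These summits shared several features. All 6 lay upstream of the member's own TSS. Among all genes with a promoter summit, the strongest lay upstream at 89.4%. All 6 also lay within 500 bp of the start of another gene. Of the 1910 promoter summits of the series, 37.0% had start sites of more than 1 gene within that distance. That share counts each summit once, while the 6 were reached through their genes. Counted by gene, 1374 of the 2395 genes with a conservative promoter summit had another gene's TSS within 500 bp of an own TSS. All 6 overlapped a peak in the set of each replicate, against 70.3% of all promoter summits. Their signals, from 115 to 243, had a median of 214. None of the 32 standard subunits had a promoter peak among the strongest 25% of the set, and 0 of 32 allows a share of up to 9.38%. In all protein-coding genes that share was 6.68%, so it was not shown to be lower at the proteasome genes. When each summit was counted only for the gene with the nearest TSS, Rpn3, Rpn13 and Rpn6 remained, and Prosbeta2 and Rpn5 dropped out in favour of mRpL39 and Hat1. By that count the share was 3 of 32 (9.38%), against 12.7% of all genes.

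Shared start regions were common among the standard subunits themselves. Another protein-coding TSS lay within 500 bp of an own TSS in 21 of 32 standard subunits (65.6%) and 3 of 16 paralogs (18.8%), against 30.9% of all genes. A summit was present at 5 of those 21 standard subunits (23.8%), against 31.9% of all genes with such a neighbour. It was present at 0 of the 11 without a neighbour, which allows a share of up to 27.3%, against 10.6% of all genes without one. In replicate 2 it was present at 8 of 21 with a neighbour (38.1%), against 41.4% of all such genes, and at 3 of 11 without one (27.3%), against 14.2%. The standard subunits therefore had more of the shared start regions at which summits were frequent, and at such regions their own share was below that of all genes in both sets, with the share of all genes inside the interval of theirs.

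The replicates differed in how many proteasome promoters they held. In the set of replicate 1, with 3929 peaks, 5 of 32 standard subunits had a summit at an own TSS (15.6%), against 13.3% of all genes. In the set of replicate 2, with 5544 peaks, 11 of 32 had a summit there (34.4%, interval 20.4 to 51.7%), against 22.6% of all genes. Thus 6 of 32 were called in replicate 2 and not in replicate 1 (18.8%, interval 8.89 to 35.3%), against 9.83% of all genes, whose share lies inside that interval. None was called in replicate 1 alone, which happened at 0.581% of all genes. The wider set of both replicates, with 6361 peaks, held a summit at 9 of 32 standard subunits (28.1%), against 21.4% of all genes. Read depth is not given in the files used here, and its part in the larger replicate 2 set was not tested.

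The 6 promoters called in replicate 2 alone belonged to all parts of the complex except the beta ring. Prosalpha3, a gate subunit, had a signal of 79.2 and rank 3061 of 5544 there, with a summit 87 bp upstream. Rpn8, the partner of Rpn11, had a signal of 63.2 and rank 3821 with a summit 214 bp upstream, and Rpn2, a scaffold subunit, a signal of 62.8 and rank 3846 with a summit 11 bp upstream. These are middle to low ranks of that set.

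The other 3 ranked lower still. Prosalpha2 had a signal of 57.3 and rank 4175, Rpt5, an ATPase, a signal of 50.7 and rank 4602, and Rpn11, the deubiquitinase, a signal of 42.9 and rank 5143. The Rpt5 summit lay 11 bp downstream of its TSS, and those of Prosalpha2 and Rpn11 lay 227 and 74 bp upstream. Prosalpha2, Prosalpha3, Rpn8 and Rpt5 also entered the wider joint set, with signals of 72.9, 106, 85.1 and 64.4. In the full ranked list of replicate 1, each of the 6 genes had a weaker peak near its start. Only those of Prosalpha3, 90 bp upstream, and Rpn8, 237 bp upstream, lay close to the replicate 2 summits. The replicate 1 peaks of Prosalpha2, Rpt5, Rpn11 and Rpn2 lay 393, 444, 305 and 444 bp upstream.

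The ranked lists reach much farther down than the thresholded sets, with 112073 peaks in replicate 1 and 89892 in replicate 2, and peaks in them near most genes carry no threshold on repeatability. In replicate 1, 20 of 32 standard subunits and 9 of 16 paralogs had a ranked peak within 500 bp of an own TSS, against 66.7% of all genes. In replicate 2, 26 of 32 standard subunits and 8 of 16 paralogs had one, against 69.2% of all genes. Presence in these lists therefore set neither list clearly apart. No ranked peak in either replicate lay at the starts of 5 standard subunits (Prosalpha1, Prosalpha6, Prosbeta6, Rpn7 and Rpn10) and 4 paralogs (Prosalpha1R, Prosbeta5R2, Rpt4R and Rpn12R). In all genes that share was 19.4%.

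The standard subunits were better placed within the replicate 2 list than within that of replicate 1. In replicate 2, 15 of 32 had their strongest promoter peak in the top 10% of the list (46.9%), 1 of 16 paralogs did (6.25%), and 29.9% of all genes did. In replicate 1, 7 of 32 standard subunits did (21.9%) and 1 of 16 paralogs, against 22.5% of all genes. The share of the standard subunits thus lay above the background in 1 replicate and level with it in the other.

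Members with ranked peaks that passed no threshold numbered 16 of the 32 standard subunits. Among all genes, 19.4% had no ranked peak in either replicate. A thresholded summit was present in both replicates at 12.7%, in replicate 2 alone at 9.83% and in replicate 1 alone at 0.581%. All remaining genes were in the state of these 16, so it was common. In replicate 2 the strongest such peaks of standard subunits were at Prosalpha7 (signal 46.4, 24 bp upstream), Prosbeta1 (39.6), Rpn12 (37.2), Rpn1 (31.7) and Rpt1 (28.4). Of these, Rpn12 and Rpt1 also had a ranked peak in replicate 1, with signals of 21.3 and 15.4. The rest were lower in replicate 2, from a signal of 21.7 at Prosalpha4 to 2.78 at Prosbeta7. Between them lay Prosbeta3, Rpt2, Rpn9, Prosalpha5, Rpt3, Rpt6, Prosbeta4 and Rpt4, at 17.4 to 12.7, while Prosbeta5 had a peak in replicate 1 alone, with a signal of 9.75.

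**Figure D2:**
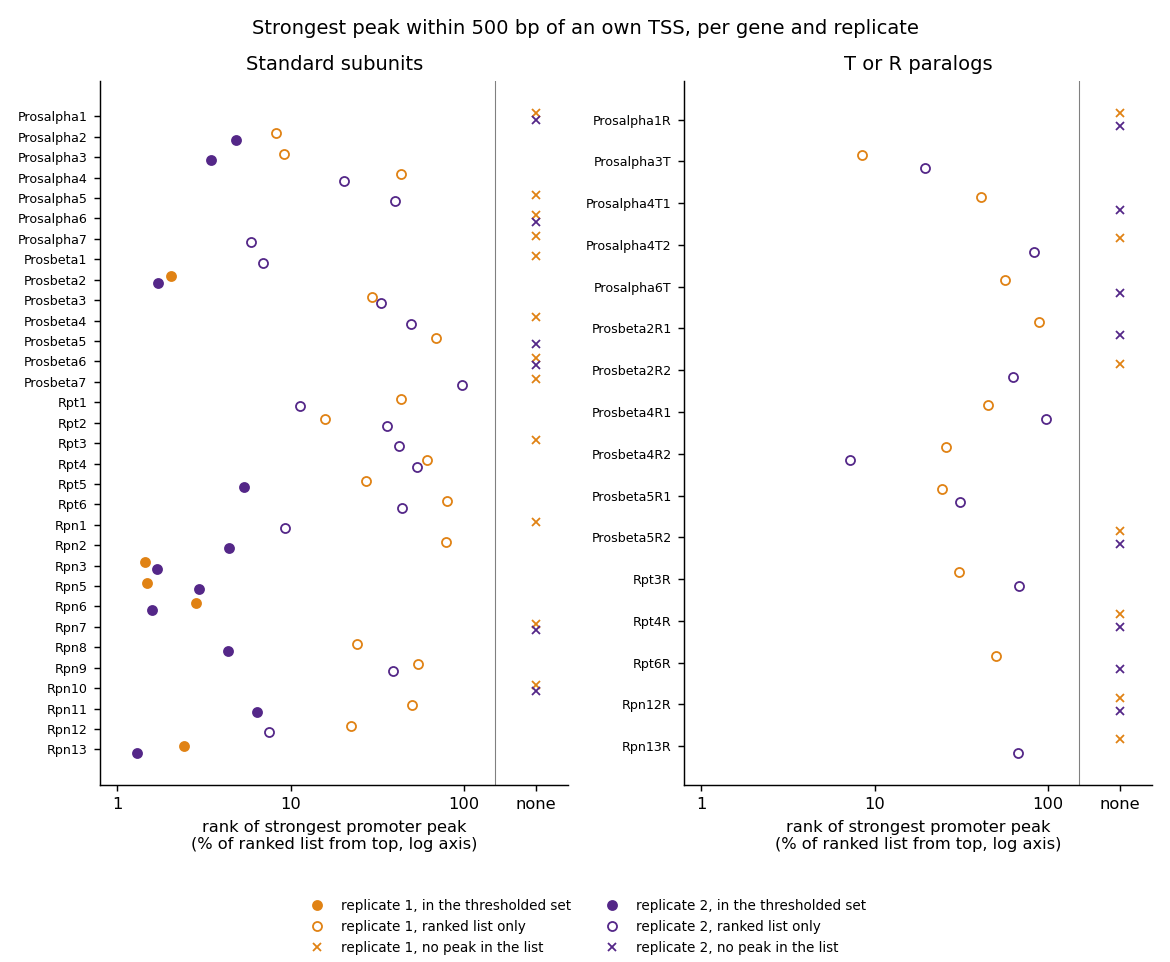
Rank of the strongest ranked-list peak within 500 bp of an own TSS for each of the 48 genes, as a percentage of the list from the top (log axis), with standard subunits on the left and T or R paralogs on the right. Filled circles are peaks that passed the replicate's own threshold, open circles passed none, and crosses mark genes with no such peak; Prosbeta2, Rpn3, Rpn5, Rpn6 and Rpn13 are filled in both replicates, and no paralog is filled.

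In replicate 2 the strongest ranked peak lay within 100 bp of an own TSS at 12 of 32 standard subunits (37.5%) and at 0 of 16 paralogs, against 21.9% of all genes. In replicate 1 it lay that near at 6 of 32 standard subunits (18.8%) and at 0 of 16 paralogs, against 14.9% of all genes. A count of 0 of 16 allows a share of up to 18.8%, which is below the share of all genes in replicate 2 and above it in replicate 1. Where a peak was present, its median signed position in replicate 2, negative upstream, was −73.0 bp for 26 standard subunits and 169 bp for 8 paralogs, against −62.0 bp for all genes. In replicate 1 the medians were −102.5 bp for 20 standard subunits and 282 bp for 9 paralogs, against −47.0 bp for all genes. The paralog medians rest on few peaks that passed no threshold, of which 3 lay upstream in each replicate. These differences were not tested.

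**Figure D3:**
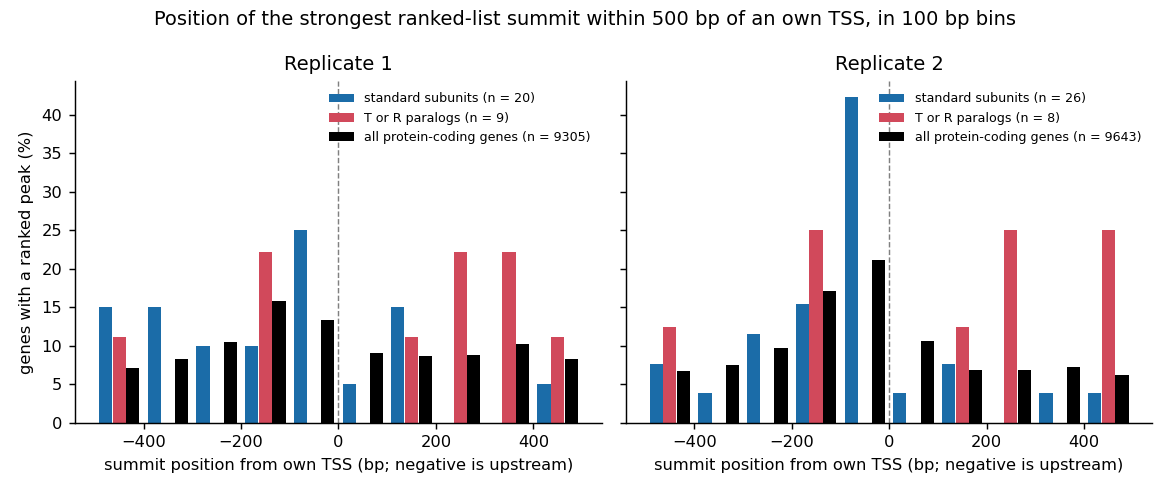
Position of the strongest ranked-list summit within 500 bp of an own TSS, in bins of 100 bp (horizontal axis, negative is upstream), as a share of the genes with such a peak (vertical axis, %). Left panel replicate 1, right panel replicate 2; in replicate 2 the bin from 100 bp upstream to the TSS holds 42.3% of the 26 standard subunits, none of the 8 T or R paralogs and 21.1% of all genes with a peak.

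None of the 16 had a promoter summit in the conservative set, the wider set or the set of either replicate. Of the 16, 2 had a ranked peak above the median signal of all genes with a peak, each in 1 replicate. The best placed were Prosalpha3T in replicate 1, with a signal of 30.4 and rank 9454 of 112073, and Prosbeta4R2 in replicate 2, with a signal of 38.2 and rank 6507 of 89892. In the other replicate Prosalpha3T had a signal of 22.1 and rank 17550, and Prosbeta4R2 a signal of 20.1 and rank 29054. Both positions were close between the replicates, at 430 and 419 bp downstream for Prosalpha3T and at 129 and 133 bp upstream for Prosbeta4R2.

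Of the other alpha paralogs, Prosalpha4T1 had a signal of 15.9 and Prosalpha6T a signal of 12.3, both in replicate 1 alone. Prosalpha4T2 had a signal of 6.32 in replicate 2 alone. Prosalpha6T is known to be needed for sperm formation, and its peak lay 288 bp downstream of its start.

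Among the beta paralogs, Prosbeta5R1 had a signal of 20.7 in replicate 1 and 18.0 in replicate 2, and Prosbeta4R1 a signal of 14.9 in replicate 1 and 2.83 in replicate 2. Prosbeta2R1 had a signal of 5.0 in replicate 1 alone and Prosbeta2R2 a signal of 10.7 in replicate 2 alone. Among the ATPase and Rpn paralogs, Rpt3R had a signal of 18.8 in replicate 1 and 9.7 in replicate 2. Rpt6R had a signal of 13.8 in replicate 1 alone, and Rpn13R a signal of 9.92 in replicate 2 alone. Among genes with a ranked peak, the median signal in replicate 1 was 20.2 for 20 standard subunits and 15.9 for 9 paralogs, against 21.2 for all genes. In replicate 2 it was 38.4 for 26 standard subunits and 10.3 for 8 paralogs, against 25.4 for all genes.

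The paralogs also lay far from the nearest conservative summit. The median distance from a TSS to it was 4215 bp for the standard subunits (range 19 to 21738 bp) and 26739 bp for the paralogs (3390 to 131382 bp), against 7262 bp for all genes. Both lists were alike in gene size, with a median length of 1390 bp for the standard subunits and 1282 bp for the paralogs, against 2166 bp for all genes. Median GC content of the promoter, taken from 250 bp before to 50 bp after the 5′ end, was 33.6% for the standard subunits and 32.7% for the paralogs, against 37.9% for all genes.

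Prosalpha1 and Prosalpha1R need separate mention, because they are close copies that lie side by side. Their gene bodies were identical at 98.8% of 1376 aligned positions and their promoters at 89.3%. Reads from such copies may not be placed uniquely, so the lack of a ranked peak at both is uncertain, and the part of read placement in it was not tested. The other pairs compared were much less alike. Gene bodies were identical at 57.5% of aligned positions for Prosalpha6 and Prosalpha6T, 55.0% for Prosbeta2 and Prosbeta2R1, and 53.9% for Prosalpha4 and Prosalpha4T1.

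Widening the search to the gene body and 2 kb on each side added mostly summits at the starts of neighbouring genes. Such a summit was present at 13 of 32 standard subunits (40.6%, interval 25.5 to 57.7%) and 1 of 16 paralogs (6.25%), against 33.5% of all genes. At 8 of these 13 standard subunits no summit lay at the own TSS. With Rpn5, which had both kinds, 11 such summits lay 1118 to 4380 bp from the member's TSS, and 9 of the 11 lay within 500 bp of the start of another gene. With no flank, 1 of 32 standard subunits held a summit inside its body, and that was Rpn6. For the 9 of 11 and for this count the share of all genes is not given here, so neither sets these genes apart.

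The strongest of these summits lay beyond the end of Rpn5, 97 bp from the start of Hpf1, named for a factor of protein ADP-ribosylation in human cells. It had a signal of 1029 and rank 113 in the conservative set, a signal of 374 and rank 163 in replicate 1, and a signal of 646 and rank 110 in replicate 2. Beyond Prosalpha4, 2 summits with signals of 260 and 570 lay in the 5′ UTR of eas, an ethanolamine kinase gene. Beyond Prosalpha3, a summit with a signal of 403 lay inside CG10543, 2461 bp from the Prosalpha3 TSS and with no start site within 500 bp. Beyond Rpt6, a summit with a signal of 381 lay 159 bp from the starts of both anox and SLIRP1.

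The rest were weaker. Beyond Prosalpha1 a summit with a signal of 308 lay 94 bp from the start of phr, a DNA photolyase gene. Those by Prosbeta6 had signals of 191 and 230, at 47 bp from the start of CG4098 and 85 bp from that of CG4101. Summits near Rpn2 (signal 247), Rpn11 (signal 170) and Rpn10 (signal 166) lay 218 bp from the start of rdog, 440 bp from that of qtc and 71 bp from that of COX8, a gene of cytochrome c oxidase. The paralog with a summit was Prosbeta2R2. Its summit, with a signal of 152 and rank 2653, lay inside cno, 3390 bp from the Prosbeta2R2 TSS.

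The promoters of the standard subunits carried the DRE more often than they carried a conservative summit. Against the replicate 2 set the counts were close, with a DRE in 12 of 32 and a summit at 11 of 32. The windows searched for the word and for summits also differ. The DRE is bound by the factor DREF, known for genes of replication and growth. The word TATCGATA was present between 250 bp before and 50 bp after the 5′ end in 12 of 32 standard subunits (37.5%, interval 22.9 to 54.7%) and 0 of 16 paralogs (up to 18.8%), against 9.37% of all genes. It was also frequent in promoters of cytoplasmic ribosomal proteins (28 of 88, 31.8%) and mitochondrial ribosomal proteins (15 of 73, 20.5%). Words were searched on both strands. The DRE reads the same on both, and it contains the 6-letter core ATCGAT, so the counts of the 2 overlap. The core alone was present in 17 of 32 standard subunits (53.1%) and 1 of 16 paralogs, Prosbeta2R1, against 23.3% of all promoters.

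The DRE genes came from every ring. In the alpha ring the word began 95 bases upstream of the 5′ end in Prosalpha3, 20 in Prosalpha5 and 16 in Prosalpha6. In the beta ring it began 121 bases upstream in Prosbeta1, 10 in Prosbeta2 and 44 in Prosbeta6. Among the ATPases it was found in Rpt5, at 46 bases upstream. Among the Rpn genes it began 216 bases upstream in Rpn12, 217 in Rpn13, 197 in Rpn3, and within the transcribed part of Rpn7 and Rpn9. The stretches of Prosalpha6, Prosbeta2 and Prosbeta6 printed above show it close to the start.

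Summits were more frequent at promoters with the word than without it, but most promoters with the word had none. A conservative summit at an own TSS was present at 3 of the 12 standard subunits with the DRE and 2 of the 20 without it. Among all genes the shares were 23.3% with the word and 16.5% without it. In replicate 2 a summit was present at 5 of 12 with the word and 6 of 20 without it, and among all genes at 34.2% with it and 21.4% without it. The intervals of the 12 and the 20 standard subunits overlap widely. Those of all genes do not overlap, at 21.1 to 25.6% with the word and 15.9 to 17.2% without it in the conservative set. Prosbeta2, Rpn3 and Rpn13 had both the word and a conservative summit. Prosalpha6 and Prosbeta6, both with a DRE close to the start, had no ranked peak in either replicate. Of the 6 promoter summits of the members, 1 had a DRE within 100 bp, against 5.5% of the 1910 promoter summits. It was the Prosbeta2 summit, 68 bp from a second DRE on the side of mRpL39, and not the DRE 10 bases from the Prosbeta2 start.

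Other words were searched in the same promoters. GGTCACAC, the element bound by M1BP, was present in 5 of 32 standard subunits (15.6%) and 0 of 16 paralogs, against 7.71% of all promoters. TGACNNNGC, an element of the kind bound by cnc with maf-S, was present in 5 of 32 standard subunits (15.6%) and 1 of 16 paralogs, against 8.64% of all promoters. The interval of 5 of 32, 6.86 to 31.8%, covers the share of all promoters for both words. CTANNNNTA, a word of the Mef2 type, was present in 17 of 32 standard subunits (53.1%) and 7 of 16 paralogs (43.8%), against 43.4%. TATAAA was present in 13 of 32 (40.6%) and 5 of 16 (31.2%), against 45.9%, and AGATAA, the GATA type, in 8 of 32 and 4 of 16 (25.0% of each), against 18.7%.

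The remaining words were present in few members, so the number of genes limits the comparison. CCACCCA, a word of the Gli type, was present in 0 of 32 standard subunits and 2 of 16 paralogs (Prosbeta4R2 and Prosbeta5R1), against 2.93% of all promoters. That share lies just below the interval of the paralogs (3.5 to 36.0%), which rests on 2 genes. GAGAGAG was present in 0 of 32 and 2 of 16, against 5.87%, and CACGTG in 0 of 32 and 1 of 16, against 4.24%. A count of 0 of 32 allows a share of up to 9.38%, which is above each of these 3 shares of all promoters. CAGCTG was present in 1 of 32 and 1 of 16, against 17.7%, which lies above the interval of the standard subunits (0.554 to 15.7%). TAATTA was present in 3 of 32 and 2 of 16, against 20.5%, which lies inside theirs (3.24 to 24.2%). These differences were not tested. None of the 6 member summits had CCACCCA within 100 bp, against 2.04% of all promoter summits. A count of 0 of 6 allows a share of up to 50%, so it does not set these summits apart. A word in a window is not a binding site, and its absence says only that these letters are not there.

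**Figure D4:**
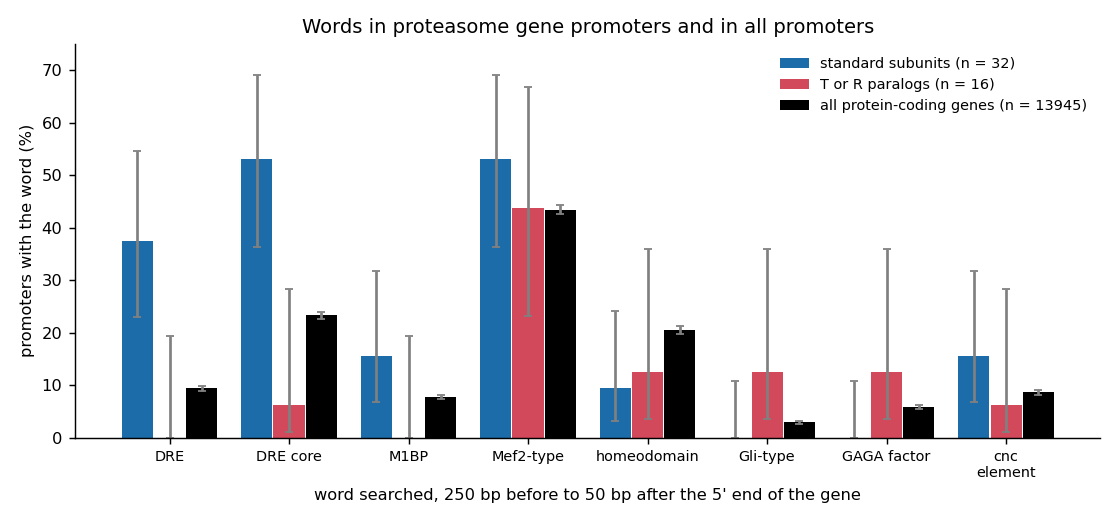
Share of promoters, from 250 bp before to 50 bp after the 5′ end, that hold each of 8 words (vertical axis, %), for standard subunits, T or R paralogs and all protein-coding genes. Bars are shares and thin lines 95% Wilson intervals for counting error; the DRE stands at 37.5% in standard subunits, 0% in the paralogs and 9.37% in all genes.

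Genes that work around the proteasome gave a similar share. Of a list of 18 such genes, 17 were found in the annotation, and 3 of them (17.6%) had a conservative summit at an own TSS, against the same 17.2% of all genes. Pomp, a chaperone of core assembly, had the strongest of these, with a signal of 438 and rank 610 at 253 bp upstream. It had a signal of 150 in replicate 1 and 283 in replicate 2. The gene of cnc itself had a summit with a signal of 224 at 313 bp downstream of an internal start site, and 3 more summits within its locus. PI31, a regulator that binds the core, had 2 summits with signals of 91.7 and 88.8. They ranked low, at 4101 and 4180 of 4998. The first overlapped no thresholded peak of either replicate, and the second overlapped one in replicate 1 alone.

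Others in the list had no conservative summit within 500 bp of a TSS. Keap1, the inhibitor of cnc, had a summit with a signal of 575 and rank 376 at 894 bp upstream, inside kuk, present in both replicate sets. Closer to its start it had a peak in the wider set (signal 120) and in replicate 2 (signal 82.0). Uch-L5, a deubiquitinase held by Rpn13 in human cells, had a thresholded peak in replicate 2 alone, with a signal of 51.9 and 2 bp from its TSS. The polyubiquitin gene Ubi-p63E had stronger ranked peaks near its starts, with signals of 129 and rank 1157 in replicate 1 and 168 and rank 1248 in replicate 2. Neither was in the thresholded set, and its thresholded peak in replicate 2 had a signal of 48.0. No promoter summit in any thresholded set was found at Uba1, the ubiquitin-activating enzyme, TER94, the unfoldase that delivers substrates, or its cofactor Npl4. None was found at the shuttle factors Rad23, Ubqn and rngo, the deubiquitinase Usp14, the lid protein Sem1, the cnc partner maf-S, Ubi-p5E or REG. REG, an activator of the core, had a summit with a signal of 156 in its 3′ UTR.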

How the data were processed

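Anti-GFP ChIP-seq of whole lmd-eGFP embryos of 0 to 18 hours gave peak lists for 2 biological replicates, and the labels' replicate numbers were used. Per the labels, positions refer to dm6. Which aligner and which peak caller made them is not given in the sources used here, and the control libraries were not analysed here. The authors deposited a signal per peak, with no stated normalization. It ranks peaks within 1 list only. The −log10 of the global IDR (irreproducible discovery rate), deposited for the joint ranked list, was used for a stricter set of at least 3. The number of reads per sample is unknown, so intervals and limits for counts of 0 cover the counting of genes only.

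Peaks were placed by their summits on the 6 main arms with Python 3.11.15, pandas 2.3.3 and numpy 2.4.6. Genes and TSSs were taken from Ensembl annotation release 115 and bases from the Release 6 genome (RefSeq). A promoter summit lay within 500 bp of any annotated own TSS, and a summit could count for several genes. The locus was the gene body with 2 kb on each side. Peaks of the replicates were matched by an overlap of at least 1 bp. Sequences were aligned with Biopython 1.88, and Wilson intervals were computed with scipy 1.17.1. The assignment of summits to genes was tested on simulated data, with summits planted at known positions. All members were named, with signals and ranks for those with a promoter summit and signals for the paralogs with a ranked peak. Other genes were named where their TSS lay within 500 bp of a listed summit or where such a summit lay inside them. Not every such gene was named. The members, the pathway list and the words were chosen with earlier results of these data known. The word counts in promoters and the use of the ranked lists were added after the data had been seen. With 1 group and no control group, no p-value was computed.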

Additional observations from a re-analysis of the deposited data

How the results depend on the processing

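Of 56 alternative values, 44 stayed close to the value reported and 12 moved. The count of standard subunits with a summit at an own TSS was 5 of 32. It was 9 in the wider set, 3 when only the nearest TSS counted, and 5 to 11 in the single replicates; it was 4 with only the outermost 5′ end and 5 at 250 bp, at 1000 bp and at the stricter IDR. The side on which the standard subunits lay of all genes was not stable. Their 15.6% was below 17.2% of all genes in the conservative set, and it was below all genes also at 1000 bp, with the outermost 5′ end and with the nearest TSS. It was above all genes in the wider set (28.1% against 21.4%), replicate 2 (34.4% against 22.6%), replicate 1 (15.6% against 13.3%), at the stricter IDR (15.6% against 12.4%) and at 250 bp (15.6% against 13.0%). The locus count of 13 standard subunits was 1 with no flank and 20 with a flank of 5 kb, and that of 1 paralog was 0 with no flank. The paralogs kept 0 promoter summits in every alternative run. A DRE lay at 1 of 6 member summits within 100 bp, at 0 within 50 bp, at 3 within 200 bp and at 2 for the core word. The median signal of 214 was 115 in the wider set and 72.3 to 79.2 in the single replicates, whose signals have no common scale. DRE promoters numbered 12 of 32, 9 for 100 bp to each side and 14 for 500 bp upstream to 100 bp downstream (both windows chosen after seeing the data). No paired analysis was possible because there is 1 group and no test. Unknown read depth limits which weak peaks could be called.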
